A study of Mus musculus with 6 samples.

Results

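The genes followed here are 9 naive T cell homing and quiescence factors, chosen by their gene symbols in the deposited count table, out of 54532 genes in all: Klf2, Klf3, Ccr7, S1pr1, Tcf7, Lef1, Satb1, Foxo1 and Foxp1. They were read in mouse naive CD4+ T cells of the C57BL/6 strain, from spleen lymphocytes. All cells were stimulated for 72 h with beads against CD3 and CD28, together with IL-2 and with antibodies that neutralise IL-4 and IFNγ. To this culture either NETs (in immunology the usual short form for neutrophil extracellular traps, webs of DNA and granule proteins, though the labels do not spell it out) or vehicle was added, with 3 libraries per group. The vehicle cells were therefore activated too, and no unstimulated cells are among the samples. The labels name neither the age and sex of the animals nor the origin and dose of the NETs. Nothing states that replicates came from separate mice or cultures, and p-values then speak only of the spread among these libraries, which may be technical.

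A resting naive T cell circulates between blood and lymph nodes. Ccr7 brings it into the node and S1pr1 lets it out again, while Foxo1 and Klf2 hold such receptors on and keep the cell out of cycle. Signals through the T cell receptor activate PI3K and Akt, which drive Foxo1 protein out of the nucleus, and Klf2, Ccr7, S1pr1 and Il7r are among the genes that depend on it. Tcf7 and Lef1 encode paired HMG-box factors, TCF-1 and LEF-1, that maintain the naive and memory-like state. Satb1 organises T cell chromatin, and Foxp1 is needed for quiescence.

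Libraries held 15657622 to 18655997 counts. The CD4 T cell markers Cd3e, Cd3d, Cd3g, Cd4, Trac, Cd5, Cd28 and Lck were all detected, at 3729 to 4293 summed CPM (a gene's counts per 1000000 counts of its library). The cells also carried activation transcripts, with Mki67 at 1377 ± 113 CPM and the IL-2 receptor chain Il2ra at 1060 ± 152 CPM with vehicle (SD, n = 3), so the word naive describes the cells at the start of culture. B cell markers summed to 420 to 482 CPM with vehicle and 395 to 422 CPM with NETs, nearly all of it Ighm, with 0 of 8 markers at 0 reads. Neutrophil markers summed to 2.68 to 3.19 CPM with vehicle and 4.78 to 6.03 CPM with NETs (exact permutation p = 0.1, the smallest that 3 against 3 libraries allow), with Ly6g at 0 reads and S100a9 at 0 reads in all vehicle libraries and 16, 24 and 20 reads in the NETs libraries. Monocyte, macrophage and dendritic cell markers summed to 31.0 to 42.2 and 40.9 to 54.5 CPM, with Cd209a at 0 reads. Mitochondrial genes took 1.66% ± 0.055 of the reads in vehicle libraries and 1.34% ± 0.134 of those in NETs libraries, at the same smallest exact permutation p of 0.1. The part of these differences in the results below was not tested, and in bulk RNA fewer cells of a type and less RNA per cell cannot be told apart.

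The promoters of Satb1, Klf2 and Klf3 are shown because Satb1 had the smallest p-value of the 9 genes and because both Klf proteins are known to bind CACCC boxes. Each line gives bases upstream of the start site from RefSeq (GRCm38.p6), ending where the deposited gene begins, 5′ to 3′ on the gene's strand, with CACCC on either strand in capitals. Satb1 is chr17:51833291-51833540 (minus strand), Klf2 is chr8:72318812-72319032 (plus strand) and Klf3 is chr5:64803271-64803387 (plus strand).
Satb1: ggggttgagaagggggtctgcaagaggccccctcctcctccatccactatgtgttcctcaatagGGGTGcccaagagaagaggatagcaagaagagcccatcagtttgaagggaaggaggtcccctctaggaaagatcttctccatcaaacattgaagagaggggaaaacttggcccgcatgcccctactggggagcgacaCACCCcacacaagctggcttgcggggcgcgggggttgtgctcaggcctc
Klf2: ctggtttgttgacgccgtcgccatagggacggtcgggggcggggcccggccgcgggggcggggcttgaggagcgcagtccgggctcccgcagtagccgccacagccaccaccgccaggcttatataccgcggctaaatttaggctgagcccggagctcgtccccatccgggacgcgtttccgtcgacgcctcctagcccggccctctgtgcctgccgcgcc
Klf3: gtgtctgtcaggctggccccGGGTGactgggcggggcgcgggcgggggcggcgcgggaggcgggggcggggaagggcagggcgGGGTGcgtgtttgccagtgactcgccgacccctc
The Satb1 stretch (250 bases) and the Klf3 stretch (117 bases) hold 2 CACCC boxes each, and the Klf2 stretch (221 bases) holds 0. The full Klf2 window holds 1, beyond the printed bases, and the full Klf3 window holds 5. Windows of 300 bases, from 250 before to 50 after a start site, were on hand for 7 of the 9 genes, with 17 start sites between them. CACCC was found on either strand in 14 of these 17 windows, against 57.5% of all 32851 mouse windows. By gene this was 6 of the 7. Windows of a gene are not independent, and some of the 5 Satb1 windows overlap, so the shares were not compared. The forkhead letters GTAAACA stood in 1 window, of Tcf7 (3.65% of all windows), and the TCF and LEF letters TCAAAG in 2, of Lef1 and Foxp1 (16% of all windows). These are letter matches only, in which the motifs were counted separately.

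None of the 9 transcripts passed the test over all genes, and Satb1 alone had groups that did not overlap in CPM. By edgeR's quasi-likelihood test 0 of the 9 passed an adjusted p of 0.05, as did 0 of 13900 genes tested (0%), where 1776 genes had an unadjusted p under 0.05. Over all genes DESeq2 called 162, limma-voom 1 and limma-trend on FPKM 2, and 0 of the 9 were among these calls. At an unadjusted edgeR p under 0.05 the 9 genes counted 0 lower (6.06% of all genes) and 0 higher (6.72% of all genes). The lower count depended on the processing. It was 1, Satb1, by DESeq2, by limma-voom and by limma-trend on FPKM. The same held in edgeR with RLE size factors, with a mean CPM of at least 5, among protein-coding genes and without vehicle replicate 1. Without NETs replicate 3 it was 3 (S1pr1, Tcf7 and Satb1). It stayed 0 with no filter on low counts, with the replicate number as a block, and without vehicle replicate 2 or 3 or NETs replicate 1 or 2. Of the 9, 6 had a log2 fold change below 0, the median was −0.09, and over all genes 49.8% were below 0 with a median of 0.0012.

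Ccr7, the receptor that follows the chemokines CCL19 and CCL21 into lymph nodes (ENSMUSG00000037944; chromosome 11, 99144196 to 99155077), was the most even of the 9. It stood at 622, 621 and 637 CPM in vehicle replicates 1 to 3 and at 632, 622 and 643 CPM in NETs replicates 1 to 3. The groups overlapped and the 6 libraries lay almost level. The log2 fold change was 0.03 (SE 0.07; edgeR adjusted p = 0.919), and its 95% interval ran from 0.911-fold to 1.14-fold.

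S1pr1, the receptor for sphingosine 1-phosphate by which T cells leave lymphoid tissue (ENSMUSG00000045092; chromosome 3, 115710433 to 115715072), varied most between libraries. Its values were 301, 417 and 333 CPM with vehicle and 284, 289 and 374 CPM with NETs. Vehicle replicate 2 was highest and NETs replicate 3 next, above the other vehicle libraries, so the groups overlapped. Its log2 fold change was −0.14 with an SE of 0.13, the edgeR adjusted p was 0.693, and the 95% interval ran from 0.743-fold to 1.11-fold. Without vehicle replicate 2 it was 0.015. Of the other receptors of the family, S1pr4 averaged 170 ± 14.4 CPM with vehicle and 175 ± 33.8 with NETs, S1pr2 averaged 12.3 and 11.8 CPM, and S1pr3 and S1pr5 had 31 and 5 reads over all libraries, too few to test.

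**Figure D1:**
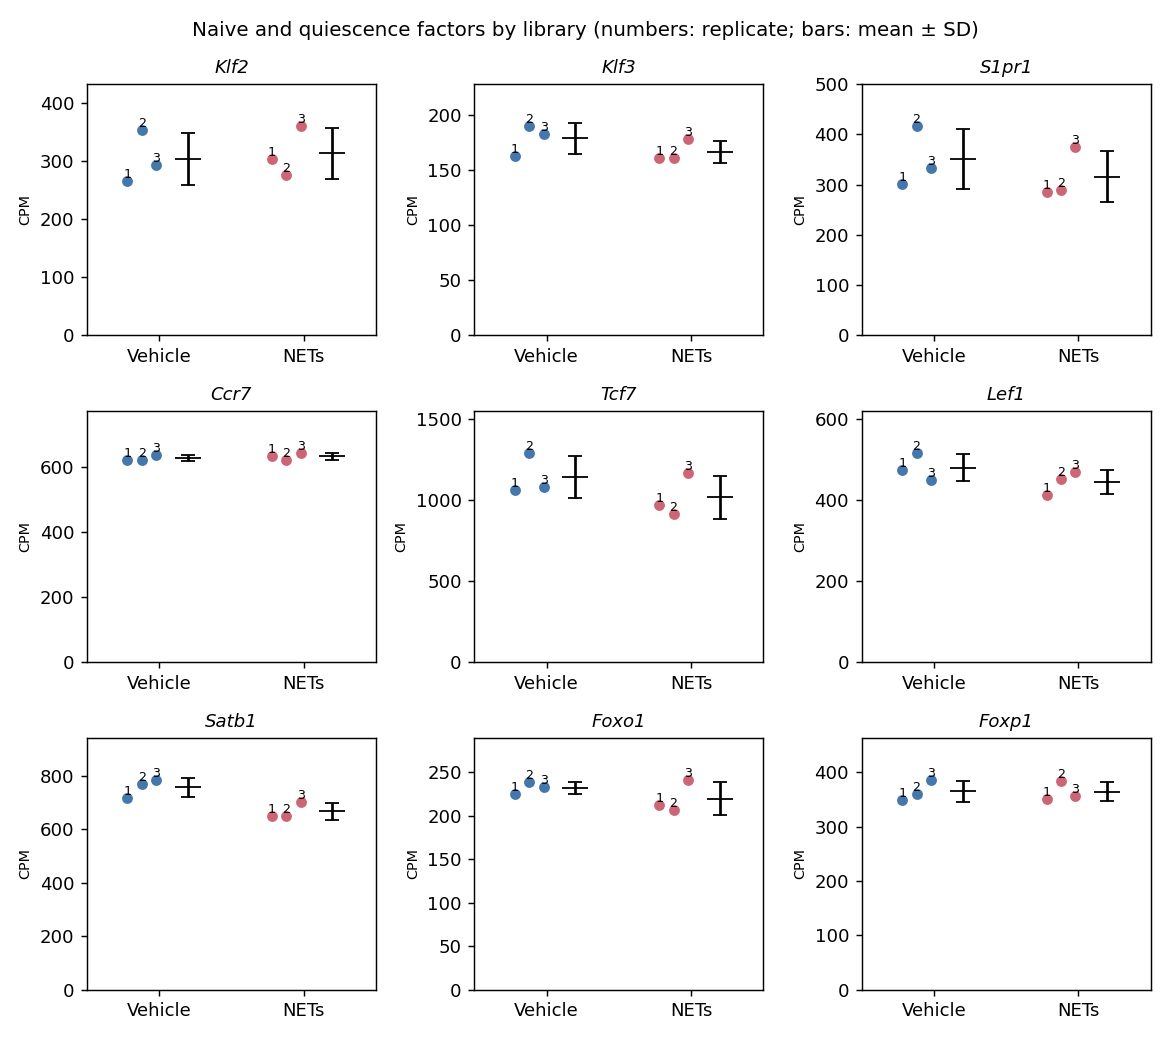
Each panel plots one gene in CPM (vertical axis from 0), with a point for each library numbered by replicate and a bar for the group mean ± SD (n = 3). Satb1 is the gene whose NETs libraries all lie below the vehicle libraries, at 650 to 702 against 718 to 786 CPM, and Ccr7 is level across all 6.

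Klf2, a zinc-finger factor that activates S1pr1 and restrains proliferation (ENSMUSG00000055148; chromosome 8, 72319033 to 72321656), gave 265, 353 and 293 CPM with vehicle and 303, 276 and 361 CPM with NETs. The order of libraries resembled that of S1pr1, with NETs replicate 3 and vehicle replicate 2 on top and full overlap between groups. Its log2 fold change was 0.06 (SE 0.12; edgeR adjusted p = 0.879; 95% interval 0.869-fold to 1.25-fold), and it turned to −0.044 without vehicle replicate 1 and to −0.064 without NETs replicate 3. Klf3, a related factor that mostly represses and is itself a target of other Klf proteins (ENSMUSG00000029178; chromosome 5, 64803388 to 64832901), was at 163, 190 and 182 CPM with vehicle and 161, 160 and 178 CPM with NETs. These ranges overlapped, and the log2 fold change was −0.09 (SE 0.09; edgeR adjusted p = 0.712).

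Among the 17 genes of the Klf family 14 were detected well enough to test and 2, Klf14 and Klf15, had 0 reads. By deposited FPKM (reads scaled by gene length and library total) Klf2 was at 164 ± 24.3 with vehicle and Klf13 at 151, with overlapping library values, followed by Klf3 at 94.9 and Klf6 at 59.8. Klf10, Klf11 and Klf16 lay between 11.3 and 20.2 FPKM and Klf7 at 8.34. Klf9, Klf4, Klf8, Klf1, Klf12 and Klf5 were at 3.23 or less, while Klf17 had 2 reads. The FPKM of Klf13, Klf3 and Klf6 rests on less than the gene length in the deposited table, and that of Klf2 on all of it. Divided by the listed length, means over all libraries were 167 for Klf2, 43.6 for Klf13, 26.1 for Klf6 and 15.3 for Klf3, so the order changed. Among the relatives of Klf2 and Klf3 the smallest p was that of Klf6, at 122 ± 15.6 CPM with vehicle and 107 ± 10.3 with NETs (log2 fold change −0.19, SE 0.11; edgeR adjusted p = 0.482).

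Tcf7, which encodes TCF-1 (ENSMUSG00000000782; chromosome 11, 52252371 to 52283014), was the most abundant of the 9, with 1060, 1289 and 1077 CPM with vehicle and 968, 914 and 1164 CPM with NETs. NETs replicate 3 lay above vehicle replicates 1 and 3, so the groups overlapped. The log2 fold change was −0.16 (SE 0.11; edgeR adjusted p = 0.553; 95% interval 0.763-fold to 1.05-fold). Lef1, its partner with the same kind of HMG box (ENSMUSG00000027985; chromosome 3, 131110471 to 131224356), was at 474, 518 and 451 CPM with vehicle and 413, 452 and 469 CPM with NETs. Its groups overlapped too, and the log2 fold change was −0.10 (SE 0.09; edgeR adjusted p = 0.649). The related Tcf7l1 and Tcf7l2 averaged 4.45 and 0.517 CPM with vehicle and 4.94 and 0.801 CPM with NETs.

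Of 19 partners and feedback genes of TCF and LEF factors, 18 were tested, 8 lay below 0 and 10 above. At an unadjusted edgeR p under 0.05, 0 were lower (6.06% of all genes) and 0 higher (6.72% of all genes). Axin2, a feedback inhibitor that β-catenin with TCF switches on, averaged 40.0 ± 2.33 CPM with vehicle and 33.3 ± 4.16 with NETs, with all NETs libraries below (log2 fold change −0.25, SE 0.12; edgeR adjusted p = 0.405). The corepressor Tle4 averaged 75.5 ± 4.22 and 66.3 ± 4.92 CPM, likewise without overlap (−0.17, adjusted p = 0.456), and the short relative Aes stood at 0.16 (adjusted p = 0.497).

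Satb1, the chromatin organiser (ENSMUSG00000023927; chromosome 17, 51736187 to 51833290), had the smallest p-value of the 9. It was at 718, 769 and 786 CPM with vehicle and at 650, 650 and 702 CPM with NETs, so that every NETs library lay below every vehicle library. This made it 1 of 9 genes with NETs libraries all below, where 9.04% of all genes had them so. NETs libraries lay all above for 0 of the 9, and for 1067 of the 13900 genes tested. The lack of overlap was lost when CPM was scaled by TMM factors. The log2 fold change was −0.17 (SE 0.08; 95% interval −0.34 to 0.0007), and edgeR gave an unadjusted p of 0.0508 and an adjusted p of 0.392. It kept its sign in 15 of 15 alternatives, between −0.22 and −0.15, with adjusted p from 0.229 to 0.828.

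Foxo1, the forkhead factor that sustains Il7r and Klf2 in resting cells (ENSMUSG00000044167; chromosome 3, 52268336 to 52353221), gave 225, 239 and 233 CPM with vehicle and 212, 206 and 241 CPM with NETs. NETs replicate 3 was the highest of all 6 libraries and the other NETs libraries the lowest. The log2 fold change was −0.07 (SE 0.09; edgeR adjusted p = 0.773; 95% interval 0.839-fold to 1.08-fold). Foxp1, which competes with Foxo1 at the Il7r locus (ENSMUSG00000030067; chromosome 6, 98925338 to 99522721), was at 349, 360 and 386 CPM with vehicle and 352, 384 and 357 CPM with NETs. At 0.01 (SE 0.08; edgeR adjusted p = 0.976) its log2 fold change was the nearest to 0 of the 9. Of their relatives, Foxo3 averaged 166 ± 6.01 and 154 ± 4.39 CPM (−0.10, adjusted p = 0.610), Foxo4 stood at 0.14, Foxp4 at −0.02 and the regulatory T cell factor Foxp3 at 0.20 (adjusted p = 0.545), and Foxo6 and Foxp2 had 3 and 1 reads.

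The genes listed here as dependent on Foxo factors mostly had values below 0, beside −0.07 for Foxo1 itself. None passed the edgeR test over all genes. Of the 17 genes in the list, 16 had a log2 fold change below 0 and the median was −0.27. The list is not a full set of such genes. Kept out of it were Klf2 (0.06), Ccr7 (0.03) and S1pr1 (−0.14), which also depend on Foxo1. At an unadjusted edgeR p under 0.05, 9 of the 17 were lower (6.06% of all genes) and 0 higher (6.72% of all genes). All NETs libraries lay below all vehicle libraries for 7 of 17 (9.04% of all genes). The list was drawn up with earlier results of these data known, so these counts describe it and test nothing about Foxo targets. By edgeR 0 of 17 passed an adjusted p of 0.05, but DESeq2 called 3 (Il7r, Rictor and Klhl24), and edgeR called 4 with no filter on low counts and 6 without vehicle replicate 3. The count of 9 was 5 without vehicle replicate 1, 5 without NETs replicate 2 and 14 without vehicle replicate 3, and the median was −0.16 without vehicle replicate 2.

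Il7r, the IL-7 receptor chain that keeps naive cells alive, was at 201, 213 and 154 CPM with vehicle and 105, 133 and 146 CPM with NETs. All NETs libraries lay below all vehicle libraries, by a small margin between vehicle replicate 3 and NETs replicate 3. The log2 fold change was −0.56 (SE 0.14; edgeR adjusted p = 0.223). Klhl24, a Cullin-3 adaptor, averaged 178 ± 24.1 CPM with vehicle and 131 ± 6.52 with NETs (−0.44, SE 0.10; adjusted p = 0.223), and Rictor, the defining subunit of mTOR complex 2, 145 ± 14.8 and 112 ± 10.2 CPM (−0.37, SE 0.10; adjusted p = 0.223). The death gene Bcl2l11 stood at −0.26 (adjusted p = 0.271). The 3 homing and egress genes among the 9 that also depend on Foxo1 had values of 0.06 for Klf2, 0.03 for Ccr7 and −0.14 for S1pr1. Whether they differ from Il7r was not tested. The forkhead letters GTAAACA stood in 3 of 19 windows on hand for 14 of the Foxo target genes, those of Bcl2l11, Sesn1 and Txnip, against 3.65% of all windows.

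**Figure D2:**
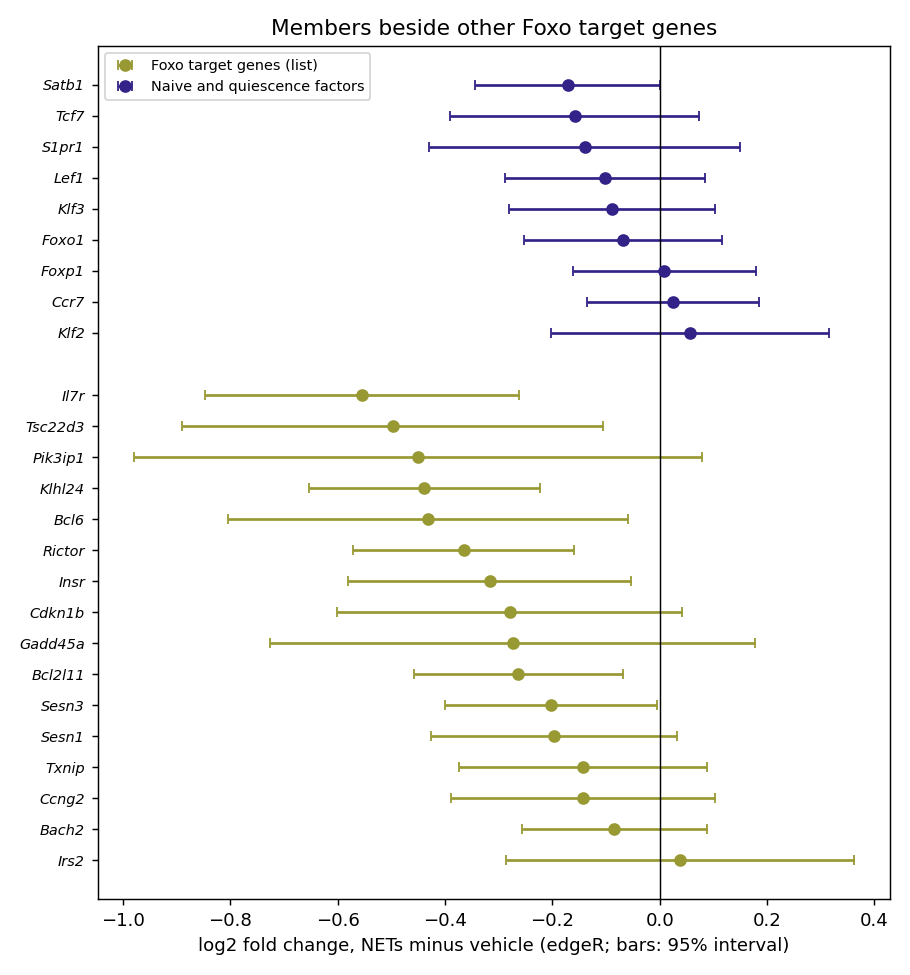
Points give the edgeR log2 fold change, NETs minus vehicle (horizontal axis), with bars for the 95% interval, for the 9 naive and quiescence factors (dark blue) and for 16 of the 17 other Foxo target genes (olive; 1 is not drawn). The intervals of the 9 all include 0, while the target genes drawn lie left of 0 except Irs2, from −0.56 for Il7r to 0.04 for Irs2.

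The lists around the 9 genes share some members with each other, Il7r, Rictor and Tsc22d3 among them. Over all genes tested, 6.06% were lower and 6.72% higher at an unadjusted edgeR p under 0.05. The counts that follow describe the lists beside these shares and were not tested. Of 10 homing and survival receptors 6 lay below 0, with Cxcr4, which holds cells in marrow, at 62.8 ± 9.07 and 46.1 ± 6.78 CPM (log2 fold change −0.43, edgeR adjusted p = 0.226), and 3 had an unadjusted p under 0.05, all lower. Of 23 genes that restrain growth 15 lay below 0 (median −0.14) and 3 had an unadjusted p under 0.05, all lower: the ubiquitin ligases Cblb (−0.24, adjusted p = 0.265) and Peli1 (−0.28, adjusted p = 0.288) and the glucocorticoid-induced Tsc22d3 (−0.50, adjusted p = 0.292). Of 20 further naive signature genes 14 lay below 0 (median −0.09), with 3 lower and 1 higher at an unadjusted p under 0.05. The pseudokinase gene Trib2 was at 469 ± 76.2 and 348 ± 34.0 CPM (−0.42, adjusted p = 0.223), Ms4a6b at −0.26 and Treml2 at 0.22.

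Genes upstream of Foxo1 and genes of activation divided more evenly. Of 25 genes of PI3K, Akt and mTOR signalling 12 lay above 0 and 13 below, with a median of −0.0002. At an unadjusted edgeR p under 0.05, 2 were lower (6.06% of all genes) and 2 higher (6.72% of all genes). The kinase gene Akt2 was at 168 ± 4.81 and 193 ± 14.96 CPM (log2 fold change 0.22, edgeR adjusted p = 0.305), and the kinase subunit Pik3cg stood at 0.21 (adjusted p = 0.364). Of 14 tested genes of sphingosine 1-phosphate handling 8 lay above 0, among them Gnai2 at 0.17, Sphk2 at 0.23 and Gna12 at 0.28, and 6 below. Of these genes 0 had an unadjusted p under 0.05. The smallest p was that of Cd69, at −0.23 with all NETs libraries below all vehicle libraries (edgeR adjusted p = 0.399). Of 23 activation and effector genes 13 lay above 0 (median 0.04). The amino acid transporter Slc7a5 stood at 0.39 (adjusted p = 0.344), the hypoxia factor Hif1a at −0.28 (0.252) and the proliferation marker Mki67 at −0.18 (0.386). All 11 regulatory T cell markers lay above 0 (median 0.18), among them the actin-capping gene Capg at 0.36 (edgeR adjusted p = 0.223), Ccr8 at 0.36 (0.408) and Gpr83 at 0.23 (0.398). Their summed level ranged from 2069 to 2584 CPM with vehicle and from 2323 to 2601 CPM with NETs (exact permutation p = 0.3).

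Several of the 9 genes shared an order of libraries that cut across the treatments. Vehicle replicate 2 and NETs replicate 3 were the highest pair of libraries for Klf2, S1pr1, Tcf7, Lef1 and Foxo1, on log2 CPM scaled by TMM factors, as they were for 8.81% of all genes tested. This pair was picked out after the values were seen. Over all genes tested, the deviations of these libraries from their group means correlated at 0.27. The same libraries had the lowest summed level of the activation list, at 5555 and 5478 CPM against 5854 to 6342 CPM in the others, and the highest summed level of CD4 T cell markers, at 4293 and 4030 CPM. The part of these in the pattern was not tested.

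S1pr1, Klf2 and Tcf7 spread most across libraries, with SDs of centred log2 CPM of 0.23, 0.20 and 0.19. Likeness of profiles was measured as the root mean square difference of centred log2 CPM over the 6 libraries, among 10072 other genes at 5 CPM or more. The nearest to S1pr1 were the ion channel gene Cnga1 (0.049) and the innate receptor gene Tlr1 (0.055), and those nearest to Klf2 were the zinc transporter gene Slc39a13 (0.036) and Il6ra, a chain of the IL-6 receptor (0.039). Nearest to Tcf7 were Ripor2 (0.017), an inhibitor of RhoA, and Klhl6 (0.022). Among the 9 genes themselves, S1pr1 and Tcf7 were closest to each other (0.069), and S1pr1 was the closest to Klf2 (0.11).

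**Figure D3:**
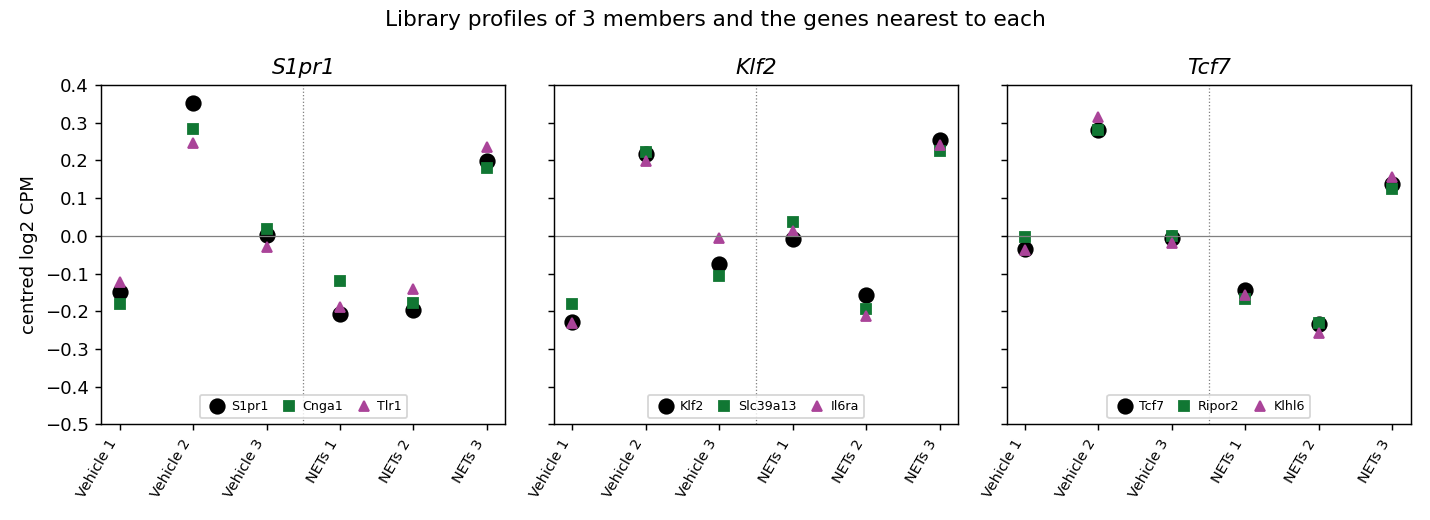
Each panel plots centred log2 CPM (vertical axis) in the 6 libraries for S1pr1, Klf2 or Tcf7 (black) and for the nearest pair of other genes by profile (green squares and purple triangles). In all panels vehicle replicate 2 and NETs replicate 3 lie highest, on both sides of the dotted line between the groups.

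By deposited FPKM, 8 of the 9 transcripts ranked within the top 10.4% of genes tested in these activated cells. Over all 6 libraries the order on this scale was Tcf7 at 512, Ccr7 at 318, Satb1 at 223, Foxp1 at 208, Lef1 at 190, Klf2 at 167, S1pr1 at 109, Klf3 at 91.7 and Foxo1 at 26.1. Tcf7 ranked 173rd and Ccr7 289th of 13900 genes tested, and Foxo1 ranked 5014th. Library values of neighbours overlapped from Satb1 to Foxp1, Foxp1 to Lef1, Lef1 to Klf2 and S1pr1 to Klf3. Within single libraries each of the first 3 of these steps held in 5 of 6, and S1pr1 lay above Klf3 in 6 of 6. Tcf7, Ccr7 and Foxo1 stood apart from their neighbours with no overlap, as did Klf2 from S1pr1.

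This order depended on the length used. For Ccr7, Klf2, S1pr1 and Foxo1 the FPKM rests on the gene length in the deposited table, but for Klf3 it rests on 1879 bases where the table lists 11243, for Foxp1 on 1756 of 13751, for Satb1 on 3197 of 19027, for Lef1 on 2440 of 8788 and for Tcf7 on 2106 of 2625. Divided by the listed length, Satb1 was at 37.4, Foxp1 at 26.5, Lef1 at 52.7 and Klf3 at 15.3 on the same scale, and Klf2 and S1pr1 moved up to the third and the fourth place. By the listed length 6 of the 9 ranked within the top 9.99%, while Foxp1 stood at the top 15.2%, Foxo1 at 15.5% and Klf3 at 26.8%. Tcf7 and Ccr7 led under both lengths. The genes with the shortened length have several annotated transcripts (31 for Foxp1, 14 for Satb1, 9 for Klf3, 8 for Lef1 and 2 for Tcf7), and each of the others has 1.

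**Figure D4:**
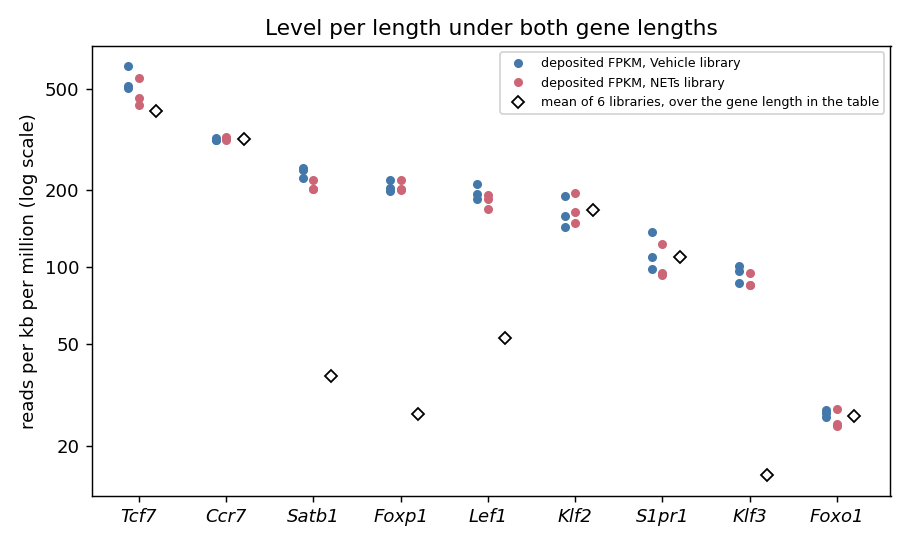
The level per length (log axis) of each gene is shown as deposited FPKM in every library (blue, vehicle; red, NETs) and as the mean of 6 libraries over the gene length in the table (open diamonds). The diamonds of Satb1, Foxp1, Lef1 and Klf3 fall far below their FPKM points, to between 15.3 and 52.7, while those of Ccr7, Klf2, S1pr1 and Foxo1 coincide with them.

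Overlapping genes could add few reads to these values. Strand use is not given in the sources used here, and exons of Lef1, Klf3, Satb1 and Foxo1 share bases with genes on the opposite strand. Those genes held 305 reads (Gm43352, at Lef1), 193 (Gm20033, at Klf3), 393 (Gm6934, at Satb1) and 0 (Gm20402, at Foxo1) over the 6 libraries. Beside these stood 47658 reads for Lef1, 17704 for Klf3, 73242 for Satb1 and 23231 for Foxo1. On the same strand, Satb1 shares exon bases with Gm36931 (220 reads), and Foxp1 (37605 reads) with Gm20696 (27) and Gm49348 (0). How reads in shared bases were assigned is not stated, so these counts do not bound what a gene gained or lost.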

How the data were processed

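Whole-number read counts per Ensembl gene, deposited by the authors without normalization, were used for the tests reported. Reads were aligned with STAR, and DESeq2 and the build mm9 are also named, per the submitters' processing notes, without versions, and no source used here states the counter, annotation or strand use. Coordinates in the deposited table equal those of GRCm38 (GENCODE M21) for 98.3% of 54409 shared genes and for all 9 members, so they are given as GRCm38. FPKM values deposited by the authors were used for levels between genes and for alternatives.

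Genes kept by filterByExpr (13900) were scaled by TMM and tested with edgeR 4.0.16 in R 4.3.3 (quasi-likelihood, robust, two-sided, group only), with Benjamini-Hochberg adjustment over all of them. Intervals are 95% from the fit's t distribution. The test was tried on simulated data first. CPM in the text uses total counts. The common biological coefficient of variation was 0.134. Intervals cover these libraries only, and no molecular identifiers are mentioned. Alternatives used limma 3.58.1, DESeq2 1.42.0, other filters and scalings, and leaving out libraries.

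Related lists were described by counts and medians, without a set test. The text names the 9 members, up to 3 genes with the smallest p per list that stood in no earlier list, detected relatives in each family, and the nearest profiles by the stated distance. Il7r and Cxcr4 come from the homing list. Irs2, Cd69, S100a9, Ighm, Il2ra and the genes that only DESeq2, the missing filter or a left-out library called were named after their values were seen. Some genes that enter the counts are not reported here by name. The members and lists were chosen with earlier results of these data known. CD8, NK and erythroid markers summed to at most 20.8, 14.8 and 2.62 CPM.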

Additional observations from a re-analysis of the deposited data

How the results depend on the processing

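Of 135 values of the 9 genes under 15 alternatives, 126 kept their sign and 0 passed the threshold, with adjusted p from 0.229 to 0.993. Foxp1, at 0.01 in the test reported, was −0.0047 with a mean CPM of at least 5, −0.0057 among protein-coding genes and −0.0024 by limma-trend on FPKM at each pseudocount. With 1 library left out in turn the log2 fold change ranged from −0.064 to 0.19 for Klf2, from −0.29 to 0.015 for S1pr1 and from −0.034 to 0.050 for Foxp1, and the median of the 9 from −0.15 to −0.032. The cause of these turns was not tested. Over all genes edgeR called 322 with no filter on low counts, DESeq2 called 162, limma-voom 1 and limma-trend on FPKM 2 at each pseudocount. Leaving out libraries moved this count from 0 to 405, with 405 without vehicle replicate 3, 1 without NETs replicate 1 and 2 without NETs replicate 2. Genes of the 9 without overlap between groups numbered 0 with CPM scaled by TMM factors, and 1 to 5 with a library left out. They were 2 without vehicle replicate 1, 3 without vehicle replicate 3 and 5 without NETs replicate 3. With fewer libraries in a group overlap is lost more easily. The share over all genes was not computed for these settings, so these counts say nothing particular about the 9 genes. For the Foxo target genes, alternatives chosen after seeing the data gave medians of −0.35 to −0.16 and 5 to 14 genes lower at an unadjusted p under 0.05 with a library left out, and 16 or 17 of 17 genes stayed below 0 in every alternative. The replicate block left a median of −0.087 for the 9 genes and called 0 genes. Samples with the same number did not deviate together over all genes tested (correlations −0.037, −0.082 and −0.21). The numbers were thus not treated as pairs, and no sample correlated best with its own number. The highest correlations were 0.27 for vehicle replicate 2 with NETs replicate 3 and 0.24 for vehicle replicate 3 with NETs replicate 1. Each of the 9 genes had at least 17704 reads over the 6 libraries, and the precision rests on 3 libraries a group.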
